A study of Mus musculus with 12 samples.

Results

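The SOX family factors followed here are 10 transcription factor genes with a role in neural cells, chosen by their symbols and group names. They were *Sox1*, *Sox2* and *Sox3* (group SOXB1, 3 genes), *Sox4* and *Sox11* (SOXC, 2 genes), *Sox5* and *Sox6* (SOXD, 2 genes), and *Sox8*, *Sox9* and *Sox10* (SOXE, 3 genes). The count table held 18911 genes, all 10 SOX genes were in it under their Ensembl identifiers, and all 10 passed the filter on low counts that left 17076 genes for testing. Each gene was read in 12 RNA-Seq libraries, 3 of each of 4 genotypes, from mouse neural progenitor cells (mNPCs) that the study grew from the hippocampus of newborn pups.

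The cassette behind the 4 genotypes came from a single CRISPR-made line on a C57BL/6J background, which holds a stop cassette between loxP sites (LSL) inside intron 1 of the gene *Kmt2a*, which encodes a histone H3K4 methyltransferase whose heterozygous loss causes Wiedemann-Steiner syndrome. *Kmt2a*+/+ cells carried neither cassette nor Cre, and *Kmt2a*+/LSL cells carried the cassette on one allele, where its poly-A signal cuts the transcript short. Nes-Cre+/- *Kmt2a*+/+ cells carried the recombinase without a cassette, and in Nes-Cre+/- *Kmt2a*+/LSL cells the nestin promoter, active in neural precursors, drove the Cre that takes the cassette out. The comparisons ask whether the loss of one *Kmt2a* allele moved SOX transcripts and whether cassette removal moved them back. No source used here says which libraries share a litter or a culture day, so p values measure the spread between these libraries only.

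SOX proteins bind DNA through one high-mobility-group (HMG) box that bends the double helix, and the groups are defined by how alike these boxes are. SOXB1 factors hold neural progenitors in a dividing, undifferentiated state, SOXC factors come on as progenitors turn into neurons, and SOXE factors drive gliogenesis, with SOX9 at its start and SOX10 in the oligodendrocyte lineage. SOXD proteins lack an activation or repression domain of their own and modulate the SOXE factors and the timing of differentiation. In neural progenitor cultures SOX2 and SOX9 are common identity markers, while SOX10 marks cells committed to oligodendrocytes.

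The HMG boxes also bear on how well one SOX transcript can be told from another, so the coding DNA of the box is shown for the 3 SOXB1 genes, a group in which *Sox3* varied most between libraries. Each run is 237 bases in GRCm38, 5′ to 3′ on the coding strand and inside one exon, and capitals mark the longest stretch shared base for base with another SOXB1 box. *Sox1* (chr8:12396511-12396747, plus strand) and *Sox2* (chr3:34650542-34650778, plus strand) share 38 bases, and *Sox3* (chrX:60892765-60893001, minus strand) shares 32 with *Sox2*.
Sox1: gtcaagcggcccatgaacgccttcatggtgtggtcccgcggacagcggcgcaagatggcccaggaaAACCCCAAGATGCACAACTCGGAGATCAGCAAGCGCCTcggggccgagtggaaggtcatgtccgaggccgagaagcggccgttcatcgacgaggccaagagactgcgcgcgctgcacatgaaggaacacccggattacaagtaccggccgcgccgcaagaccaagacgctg
Sox2: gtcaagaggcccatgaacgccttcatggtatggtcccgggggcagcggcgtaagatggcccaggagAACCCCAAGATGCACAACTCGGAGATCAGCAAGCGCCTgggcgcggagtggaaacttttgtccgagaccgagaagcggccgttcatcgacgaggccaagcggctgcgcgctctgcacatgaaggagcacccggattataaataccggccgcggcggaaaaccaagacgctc
Sox3: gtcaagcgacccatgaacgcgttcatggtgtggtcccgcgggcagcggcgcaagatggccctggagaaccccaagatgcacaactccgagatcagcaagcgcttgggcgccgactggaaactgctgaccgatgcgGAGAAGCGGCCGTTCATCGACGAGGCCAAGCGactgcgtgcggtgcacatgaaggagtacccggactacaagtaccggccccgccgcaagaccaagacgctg

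Over the 79 residues of the box, the 8 pairs within a group were 89.9% to 98.7% identical (median 92.4%), and the 37 pairs across groups 44.3% to 67.1% (median 58.2%). The closest pair was *Sox8* and *Sox9* at 98.7%, although their box DNA was only 85.2% identical, with 23 bases as the longest shared run. *Sox4* and *Sox11* shared the longest DNA run of all pairs, 48 bases. Of all words of 31 bases in a gene's transcripts, the share also present in another gene ran from 0% for *Sox6* to 2.06% for *Sox1*, so nearly all of each transcript was particular to its gene in the GENCODE models used here. The other members lie at chr13:28948919-28953713 (*Sox4*), chr12:27334264-27342574 (*Sox11*), chr6:143828425-144781977 (*Sox5*), chr7:115470872-116038796 (*Sox6*), chr17:25565892-25570686 (*Sox8*), chr11:112782224-112787760 (*Sox9*) and chr15:79154908-79165240 (*Sox10*) of GRCm38, and *Sox1*, *Sox2*, *Sox3*, *Sox4* and *Sox11* have a single exon. Of the 10 genes, 6 overlap another annotated gene in genome coordinates, among them *Sox2*, which overlaps *Sox2ot*. On the transcript strand, the words of *Sox2* were shared only with *Sox1*, *Sox21* and *Sox3*. Words on the opposite strand were not compared, and strand was not stated for the libraries.

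**Figure D1:**
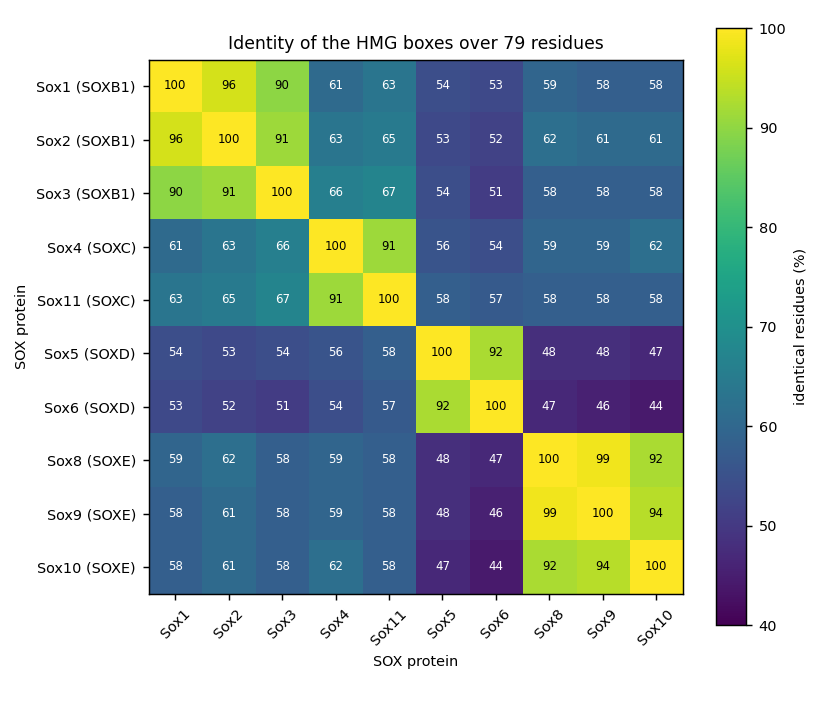
Share of identical residues (colour and number, in percent) between the HMG boxes of every pair of the 10 SOX proteins, each 79 residues long, translated from GENCODE transcripts of GRCm38. The 4 groups stand out as bright blocks on the diagonal, all at 89.9% or more, while no pair across groups passes 67.1%.

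The libraries held 18280008 to 28596919 estimated reads, and a normalized count below is a library's count scaled to the mean library size after TMM. *Kmt2a*, the targeted gene, had 3972 to 3991 normalized counts in the *Kmt2a*+/LSL libraries, 6720 to 7194 in the *Kmt2a*+/+ libraries, 6777 to 7427 in the Nes-Cre+/- *Kmt2a*+/+ libraries and 6205 to 6814 in the Nes-Cre+/- *Kmt2a*+/LSL libraries, so that the *Kmt2a*+/LSL libraries lay apart from all others as their labels say. *Kmt2a*+/+ replicate 1 stood apart from the rest: 37.4% of the 11670 genes with a mean of at least 50 normalized counts differed at least 2-fold there from the mean of the other 11 libraries, against 1.25% to 4.73% in each of the others. Most comparisons of the SOX genes that rest on that library are given with and without it. Some are also given without Nes-Cre+/- *Kmt2a*+/LSL replicate 1, whose Spearman's rho between deviation and GC content was the next lowest, -0.61 after -0.78. It and *Kmt2a*+/+ replicate 1 are called the doubted libraries. *Kmt2a*+/+ replicate 3, with the rho largest in size (0.81), was kept in that setting. All 8 neural progenitor markers were measured, with a summed level of 132921 to 338031 normalized counts that came mostly from *Fabp7* and *Vim*. They were not all high, since *Prom1* had 94.2 to 206 and *Hes5* 51.3 in *Kmt2a*+/+ replicate 1. Microglial markers summed to 9.05 to 51.3 over the 4 of 6 tested, endothelial markers to 54.3 to 123 over 3 of 5, mesenchymal and pericyte markers to 18.5 to 113 over 6 of 6, and Schwann cell and neural crest markers to 74.5 to 298 over 5 of 6. In bulk RNA, fewer cells that express a gene and less of its RNA per cell cannot be told apart.

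All 4 SOX groups were present, and their members differed widely in level. Set per kilobase of the longest annotated transcript, so that genes can be compared, the median level over 12 libraries was 4201 normalized counts per kilobase for *Sox4*, 3987 for *Sox2*, 3901 for *Sox8*, 2977 for *Sox3* and 1211 for *Sox9*. Then followed *Sox5* at 472, *Sox11* at 303, *Sox1* at 212, *Sox6* at 200 and *Sox10* at 40.6. *Sox9* was above *Sox5* in all 12 libraries without overlap. The other 8 neighbouring pairs in this order overlapped, so *Sox4*, *Sox2* and *Sox8* in particular had no order among themselves beyond their spread. Without *Kmt2a*+/+ replicate 1, *Sox3* (1797 to 4484 per kilobase) was also clear of *Sox9* (998 to 1415) and *Sox6* (134 to 254) of *Sox10* (15.4 to 90.1). With the median transcript length in place of the longest, *Sox8* moved to the first place and *Sox6* above *Sox11* and *Sox1*, and *Sox10* stayed last. The order of *Sox9* and *Sox5* turned as well, with *Sox5* at a median of 1548 per kilobase and *Sox9* at 1211, so that it rests on the transcript length used.

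**Figure D2:**
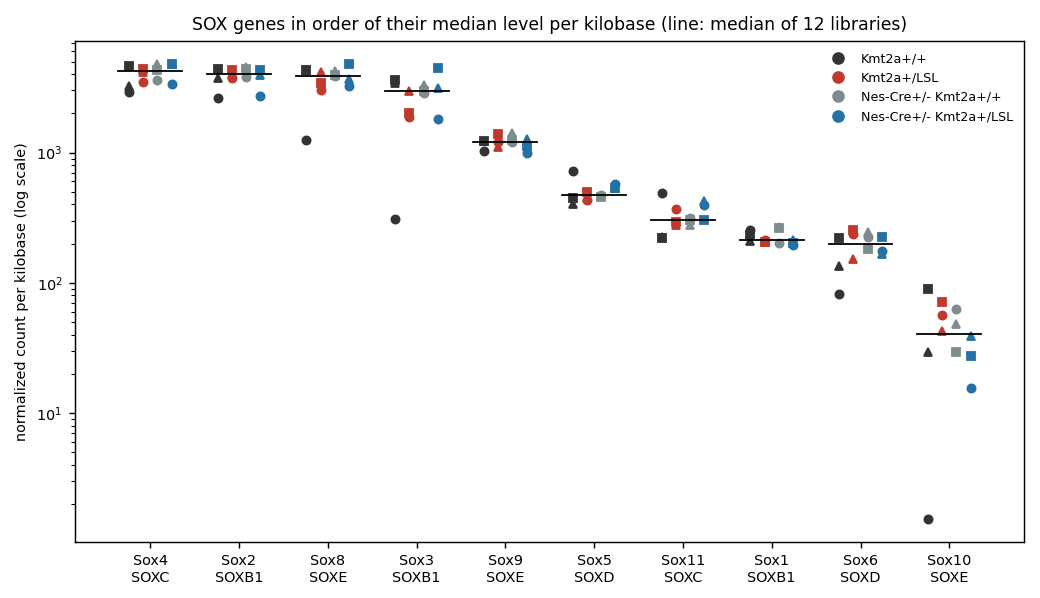
Level of each SOX gene in normalized counts per kilobase of its longest transcript (vertical axis, log scale), with genes from left to right by their median over 12 libraries (black line). Colours are genotypes, and circles, squares and triangles are replicates 1, 2 and 3. The black circles of *Kmt2a*+/+ replicate 1 lie far under the other libraries for *Sox8*, *Sox3*, *Sox6* and *Sox10*.

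Within groups, one or a pair of members made up nearly all of the SOX transcripts. *Sox2* and *Sox3* carried the SOXB1 level, with *Sox1* at 2.27% to 7.97% of the summed level per kilobase in any library. *Sox4* held 85.5% to 95.4% of the SOXC level, *Sox5* 64.3% to 89.9% of the SOXD level, and *Sox8* 54.9% to 80.8% of the SOXE level. *Sox10* was at most 1.59% of SOXE. *Kmt2a*+/+ replicate 1 set one end of these ranges for *Sox1*, *Sox4*, *Sox5* and *Sox8*, and over the other 11 libraries they were 2.27% to 4.16%, 89.4% to 95.4%, 64.3% to 76.5% and 69.8% to 80.8%. The dominance of one member in each of SOXC, SOXD and SOXE held in all 12 libraries.

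Among the SOXB1 genes, *Sox2*, the factor most used to define neural stem cells, had a steady level outside 2 libraries. Its normalized counts were 5408, 9047 and 7747 in the *Kmt2a*+/+ libraries, 7718, 8891 and 8324 in the *Kmt2a*+/LSL libraries, 7781, 9055 and 9281 in the Nes-Cre+/- *Kmt2a*+/+ libraries, and 5570, 8875 and 8077 in the Nes-Cre+/- *Kmt2a*+/LSL libraries. Replicate 1 of *Kmt2a*+/+ and of Nes-Cre+/- *Kmt2a*+/LSL were the low ones, and all genotypes overlapped. The log2 fold change was 0.17 (SE 0.22) for *Kmt2a*+/LSL against *Kmt2a*+/+ and -0.15 (SE 0.22) for Nes-Cre+/- *Kmt2a*+/LSL against *Kmt2a*+/LSL (edgeR's quasi-likelihood test, adjusted p = 1 in both). Without *Kmt2a*+/+ replicate 1 the first was -0.014, and without Nes-Cre+/- *Kmt2a*+/LSL replicate 1 the second was 0.028.

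*Sox1* was the flattest SOX gene, with 1.36-fold between its lowest and its highest library. It had 1122 ± 108 normalized counts in the *Kmt2a*+/+ libraries (SD, n = 3), 1002 ± 27.3 in the *Kmt2a*+/LSL libraries, 1181 ± 177 in the Nes-Cre+/- *Kmt2a*+/+ libraries and 987 ± 44.3 in the Nes-Cre+/- *Kmt2a*+/LSL libraries. Both genotypes bred with the LSL allele had the lower means. The log2 fold change against the control with the same Cre status was -0.16 (SE 0.16) without Cre and -0.26 (SE 0.16) with it, and both missed the threshold (edgeR, adjusted p = 1). The libraries overlapped in both comparisons. For the difference without Cre, single libraries left out gave -0.23 to -0.091, and a GC offset gave -0.81 (SE 0.43).

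*Sox3*, the X-linked SOXB1 member, was the most uneven of the well expressed SOX genes. Its normalized counts were 634, 7506 and 7123 in the *Kmt2a*+/+ libraries, 3889, 4188 and 6185 in the *Kmt2a*+/LSL libraries, 5944, 6110 and 6806 in the Nes-Cre+/- *Kmt2a*+/+ libraries, and 3710, 9260 and 6415 in the Nes-Cre+/- *Kmt2a*+/LSL libraries. *Kmt2a*+/+ replicate 1 was 9.63-fold under the mean of the other 11 libraries (6103 ± 1670), and with it the difference between *Kmt2a*+/LSL and *Kmt2a*+/+ was -0.10 (SE 0.64). Without it, all 3 *Kmt2a*+/LSL libraries lay under both remaining *Kmt2a*+/+ libraries, and the log2 fold change was -0.62 (SE 0.30, edgeR unadjusted p = 0.0578, adjusted p = 0.556). Without Nes-Cre+/- *Kmt2a*+/LSL replicate 1 as well, it was -0.62 (SE 0.20, edgeR unadjusted p = 0.0114, adjusted p = 0.246) against *Kmt2a*+/+, and Nes-Cre+/- *Kmt2a*+/LSL was 0.71 (SE 0.20) above *Kmt2a*+/LSL (unadjusted p = 0.00563, adjusted p = 0.913). The *Kmt2a*+/+ libraries left, replicates 2 and 3, deviated with GC content in the opposite direction (Spearman's rho 0.48 and 0.81 across genes), and *Sox3* has 66.4% GC. With a GC offset in place of omitted libraries the 2 differences were smaller, -0.40 (SE 0.20, edgeR adjusted p = 0.987) and 0.47 (SE 0.20, adjusted p = 1). None of these passed the threshold over all genes.

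The sex of the pups is not in the labels, and because *Sox3* lies on the X chromosome the Y-linked transcripts were read beside it. *Ddx3y*, *Eif2s3y*, *Kdm5d* and *Uty* together had 3803 to 6525 normalized counts in 8 libraries and 21.4 to 38.9 in the other 4. All 3 *Kmt2a*+/LSL libraries were among the 8, with 2 of 3 *Kmt2a*+/+, 1 of 3 Nes-Cre+/- *Kmt2a*+/+ and 2 of 3 Nes-Cre+/- *Kmt2a*+/LSL. *Sox3* spanned 634 to 9260 in the 8 (median 5186) and 5944 to 7123 in the 4 (median 6263). The part of sex in the *Sox3* differences was not tested.

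**Figure D3:**
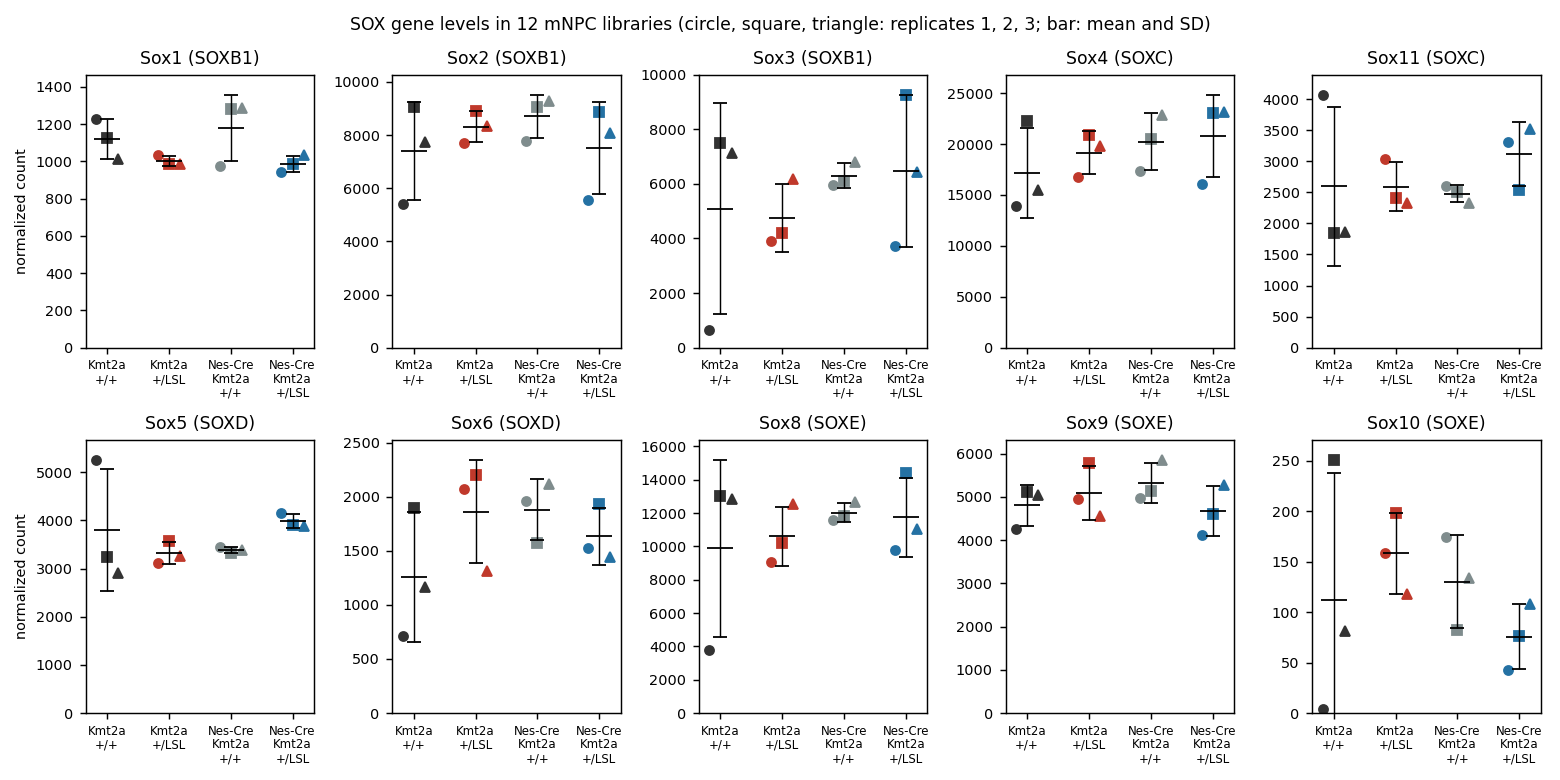
Normalized counts (vertical axis, from 0) of the 10 SOX genes in 12 mNPC libraries, with genotypes on the horizontal axis. Circles, squares and triangles are replicates 1, 2 and 3, and the bar is the mean with its SD (n = 3). The circle of *Kmt2a*+/+ lies under all other libraries for *Sox2*, *Sox3*, *Sox4*, *Sox6*, *Sox8* and *Sox10*, and above all of them for *Sox5* and *Sox11*.

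*Sox4*, the SOXC gene with the most transcripts, ranged from 13878 to 23165 normalized counts, and every genotype overlapped every other. Its means were 17189 ± 4434 (SD, n = 3) in the *Kmt2a*+/+ libraries, 19133 ± 2113 in the *Kmt2a*+/LSL libraries, 20240 ± 2791 in the Nes-Cre+/- *Kmt2a*+/+ libraries and 20792 ± 4046 in the Nes-Cre+/- *Kmt2a*+/LSL libraries. *Sox11*, which acts with *Sox4* in newborn neurons, had 4070, 1845 and 1869 normalized counts in the *Kmt2a*+/+ libraries, 3042, 2416 and 2322 in the *Kmt2a*+/LSL libraries, 2603, 2504 and 2327 in the Nes-Cre+/- *Kmt2a*+/+ libraries, and 3303, 2532 and 3513 in the Nes-Cre+/- *Kmt2a*+/LSL libraries. Here *Kmt2a*+/+ held both the highest library and the 2 lowest. The log2 fold change of *Sox11* for *Kmt2a*+/LSL against *Kmt2a*+/+ was -9.25e-05 (SE 0.285) with all libraries and 0.48 (SE 0.16, edgeR unadjusted p = 0.0118, adjusted p = 0.551) without *Kmt2a*+/+ replicate 1. The 2 *Kmt2a*+/+ libraries left deviated with GC content in the opposite direction (Spearman's rho 0.48 and 0.81), and *Sox11* has 46.5% GC. With a GC offset in place of the omitted library the difference was 0.058. The ratio of *Sox4* to *Sox11* per kilobase was 5.91 in *Kmt2a*+/+ replicate 1 and 8.46 to 20.9 in the others.

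*Sox5*, whose protein pairs with SOX6 in several lineages, was higher in Nes-Cre+/- *Kmt2a*+/LSL than in *Kmt2a*+/LSL and Nes-Cre+/- *Kmt2a*+/+, without passing the test. Its normalized counts were 4145, 3904 and 3893 in the Nes-Cre+/- *Kmt2a*+/LSL libraries, 3118, 3577 and 3268 in the *Kmt2a*+/LSL libraries, 3451, 3320 and 3380 in the Nes-Cre+/- *Kmt2a*+/+ libraries, and 5253, 3240 and 2915 in the *Kmt2a*+/+ libraries. The 3 Nes-Cre+/- *Kmt2a*+/LSL libraries lay above all *Kmt2a*+/LSL and all Nes-Cre+/- *Kmt2a*+/+ libraries, and *Kmt2a*+/+ lay on both sides of them. The log2 fold change was 0.26 (SE 0.20) against *Kmt2a*+/LSL and 0.23 (SE 0.20) against Nes-Cre+/- *Kmt2a*+/+ (edgeR, adjusted p = 1 in both). A two-sided exact permutation test gave p = 0.1 for each, the smallest value that 3 libraries against 3 allow. Against *Kmt2a*+/+, *Kmt2a*+/LSL differed by -0.195 (SE 0.20) with all libraries and by 0.11 without *Kmt2a*+/+ replicate 1.

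*Sox6*, the other SOXD gene, had 710, 1900 and 1163 normalized counts in the *Kmt2a*+/+ libraries, and 2070, 2199 and 1315 in the *Kmt2a*+/LSL libraries. Its 6 libraries with nestin-Cre spanned 1440 to 2113. The mean was lowest in *Kmt2a*+/+. Against it the log2 fold change was 0.56 (SE 0.32) in *Kmt2a*+/LSL and 0.58 (SE 0.32) in Nes-Cre+/- *Kmt2a*+/+, and the groups overlapped in both. Without *Kmt2a*+/+ replicate 1 these differences were 0.29 and 0.29, and with *Kmt2a*+/+ replicate 2 left out they were 0.99 (edgeR unadjusted p = 0.00691, adjusted p = 0.904) and 1.005 (unadjusted p = 0.00637, adjusted p = 0.843). The latter setting leaves replicate 1, a doubted library, as 1 of 2 *Kmt2a*+/+ libraries. In it 597 and 754 of 16938 genes had an unadjusted p under 0.05 (edgeR). *Sox5* exceeded *Sox6* per kilobase 8.86-fold in *Kmt2a*+/+ replicate 1 and 1.80-fold to 3.25-fold elsewhere.

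Among the SOXE genes, *Sox9*, which starts gliogenesis and keeps stem cells multipotent, was nearly as even as *Sox1*, from 4125 to 5849 normalized counts. Its means were 4799 ± 474 (SD, n = 3) in the *Kmt2a*+/+ libraries, 5096 ± 625 in the *Kmt2a*+/LSL libraries, 5320 ± 464 in the Nes-Cre+/- *Kmt2a*+/+ libraries and 4669 ± 575 in the Nes-Cre+/- *Kmt2a*+/LSL libraries. *Sox8*, its close relative, had 3765, 13009 and 12869 normalized counts in the *Kmt2a*+/+ libraries and 9067 to 14397 in the 9 libraries of the other genotypes. The ratio of *Sox8* to *Sox9* per kilobase was 1.22 in *Kmt2a*+/+ replicate 1 and 2.43 to 4.30 in the other 11 libraries. Without that replicate, *Sox8* in *Kmt2a*+/LSL lay under both other *Kmt2a*+/+ libraries, with a log2 fold change of -0.29 (SE 0.17, edgeR adjusted p = 0.593) in place of 0.10 (SE 0.37). Those 2 *Kmt2a*+/+ libraries deviated with GC content in the opposite direction to replicate 1 (Spearman's rho 0.48 and 0.81), and *Sox8* has 54.2% GC. With a GC offset the difference kept the sign it had with all libraries.

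*Sox10* was low in every library. Its normalized counts were 4.28, 250 and 81.4 in the *Kmt2a*+/+ libraries, 158, 198 and 118 in the *Kmt2a*+/LSL libraries, 174, 82.0 and 134 in the Nes-Cre+/- *Kmt2a*+/+ libraries, and 42.9, 76.3 and 108 in the Nes-Cre+/- *Kmt2a*+/LSL libraries. The first of these rested on 3 reads, for which the exact Poisson interval at 95% is 0.882 to 12.5 normalized counts, and the mean of the other 11 libraries was 129 ± 61.4, a ratio of 30.3 (10.4 to 147, counting error only). All 3 Nes-Cre+/- *Kmt2a*+/LSL libraries lay under all 3 *Kmt2a*+/LSL libraries, with a log2 fold change of -1.06 (SE 0.85, edgeR adjusted p = 1, two-sided exact permutation test p = 0.1). Against Nes-Cre+/- *Kmt2a*+/+ they overlapped, at -0.78 (SE 0.85). With both doubted libraries left out these differences were -0.80 (SE 0.47) and -0.52 (SE 0.47).

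No SOX gene passed an adjusted p of 0.05 (edgeR's quasi-likelihood test, Benjamini-Hochberg over 17076 genes) in any comparison. *Kmt2a* itself did not pass in this fit either, although all its *Kmt2a*+/LSL libraries lay under all others. It passed for *Kmt2a*+/LSL against *Kmt2a*+/+ with limma-voom, and with edgeR without *Kmt2a*+/+ replicate 1. A gene that missed the threshold here was therefore not shown to be unchanged. For *Kmt2a*+/LSL against *Kmt2a*+/+, 0 of 10 passed, and 0 of 17076 genes did (0%), with 306 genes and no SOX gene at an unadjusted p under 0.05 (1.79% of genes). The same held for Nes-Cre+/- *Kmt2a*+/LSL against *Kmt2a*+/LSL (0 genes adjusted, 275 or 1.61% unadjusted), for Nes-Cre+/- *Kmt2a*+/LSL against Nes-Cre+/- *Kmt2a*+/+ (0 and 190, 1.11%) and for Nes-Cre+/- *Kmt2a*+/+ against *Kmt2a*+/+ (0 and 239, 1.4%). For *Kmt2a*+/LSL against the mean of the other 3 genotypes, 1 gene passed (0.00586% of genes), *Grb10*, an adaptor protein of growth factor receptors that was singled out after its value was seen (log2 fold change -1.35, SE 0.15, adjusted p = 0.0209). That call was lost with the replicate number as a block and when any of 10 of the 12 libraries was left out, and held without *Kmt2a*+/+ replicate 1 or without *Kmt2a*+/+ replicate 3. There, no SOX gene was among the 205 with an unadjusted p under 0.05 (1.2%). DESeq2's Wald test called 7, 7, 3, 3 and 4 genes in these 5 comparisons, in the order given, and no SOX gene. The lowest adjusted p of any SOX gene in any comparison and setting was 0.246, for *Sox3* and for *Sox11* in *Kmt2a*+/LSL against *Kmt2a*+/+ with both doubted libraries left out, where 14.6% of all genes had an unadjusted p under 0.05 and 2 of 10 SOX genes did. In that setting 1 of 10 SOX genes (*Sox3*) had an unadjusted p under 0.05 for Nes-Cre+/- *Kmt2a*+/LSL against *Kmt2a*+/LSL (5.17% of genes), 0 of 10 against Nes-Cre+/- *Kmt2a*+/+ (3.52%), 1 of 10 (*Sox11*) for the Cre control against *Kmt2a*+/+ (11.2%) and 1 of 10 (*Sox3*) for *Kmt2a*+/LSL against the rest (6.99%).

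The median log2 fold change over the 10 SOX genes was 0.09 for *Kmt2a*+/LSL against *Kmt2a*+/+, beside 0.0011 over all genes tested, and 0.05 for Nes-Cre+/- *Kmt2a*+/LSL against *Kmt2a*+/LSL, beside 0.0017. It was -0.11 for Nes-Cre+/- *Kmt2a*+/LSL against Nes-Cre+/- *Kmt2a*+/+ (0.0049 over all genes) and 0.22 for Nes-Cre+/- *Kmt2a*+/+ against *Kmt2a*+/+ (0.014). Without *Kmt2a*+/+ replicate 1 the medians against *Kmt2a*+/+ were -0.0026 for *Kmt2a*+/LSL (0 over all genes) and 0.081 for Nes-Cre+/- *Kmt2a*+/+ (-0.0020). These comparisons share libraries, so their values are not independent. Libraries that did not overlap were seen for 0 of 10 SOX genes in *Kmt2a*+/LSL against *Kmt2a*+/+, where 4.05% of all genes did not overlap (28.8% and 3 of 10 without *Kmt2a*+/+ replicate 1), and for 2 of 10 (*Sox5* and *Sox10*) in Nes-Cre+/- *Kmt2a*+/LSL against *Kmt2a*+/LSL, where 7.1% did not. Against Nes-Cre+/- *Kmt2a*+/+ it was 1 of 10 (*Sox5*, 6.68% of genes), for Nes-Cre+/- *Kmt2a*+/+ against *Kmt2a*+/+ 0 of 10 (4.35%, or 29.3% and 4 of 10 without that replicate), and for *Kmt2a*+/LSL against all other libraries 0 of 10 (0.363%).

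**Figure D4:**
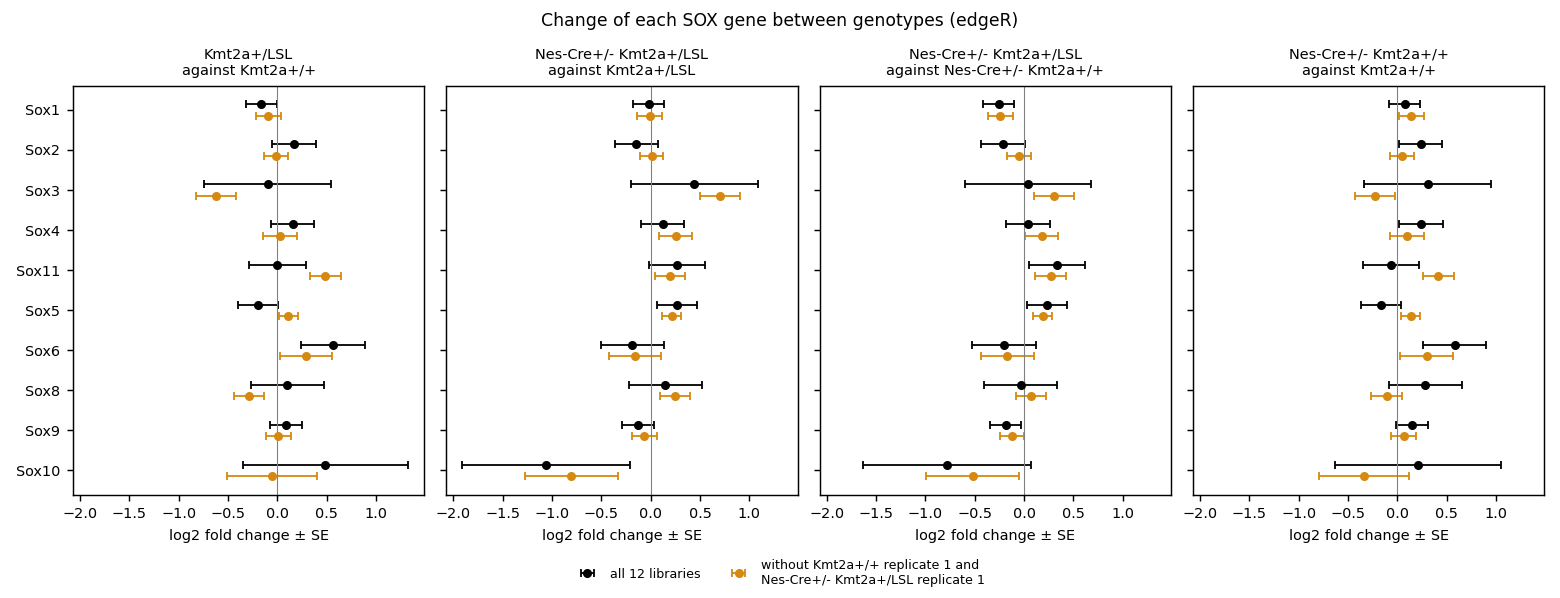
Log2 fold change with its SE (horizontal axis) of each SOX gene in 4 comparisons, from edgeR on all 12 libraries (black) and without *Kmt2a*+/+ replicate 1 and Nes-Cre+/- *Kmt2a*+/LSL replicate 1 (orange). For *Kmt2a*+/LSL against *Kmt2a*+/+, *Sox3* moves from -0.10 to -0.62 and *Sox11* from -9.25e-05 to 0.48 when those libraries are left out, and no value passes an adjusted p of 0.05.

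For 8 of 10 SOX genes the lowest or the highest library was *Kmt2a*+/+ replicate 1. The share of all genes for which this held was not counted. Over genes with a mean of at least 50 normalized counts, the median absolute log2 difference was 0.77 in this library. It was 0.12 to 0.33 in each of the others. In *Kmt2a*+/+ replicate 1, 4 of 10 SOX genes (*Sox3*, *Sox6*, *Sox8* and *Sox10*, all lower) were at least 2-fold from the mean of the other 11 libraries, where 37.4% of all genes were. Over all genes the difference in this library followed the GC content of the transcript: the median log2 difference was 0.78 for the 3075 genes under 45% GC, 0.22 from 45% to 50%, -0.57 from 50% to 55%, -1.48 from 55% to 60%, and -2.23 for the 496 genes at 60% or more. Across 11615 genes Spearman's rho between difference and GC was -0.78 in this library, -0.61 in Nes-Cre+/- *Kmt2a*+/LSL replicate 1 and 0.81 in *Kmt2a*+/+ replicate 3, given as a description since genes are not independent.

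Set against this gradient, 7 SOX genes had the sign of the median of their GC class and 3 did not. Over all genes both quartiles had that sign in every class except 45% to 50%, so most genes did too. *Sox3* (66.4% GC) was at -3.21, *Sox10* (61.8%) at -4.24 from its 3 reads, *Sox8* (54.2%) at -1.63, *Sox4* (51.1%) at -0.50 and *Sox2* (50.5%) at -0.59. *Sox11* (46.5%) at 0.69 and *Sox5* (44.8%) at 0.60 were on the high side. The exceptions were *Sox1*, at 0.22 with 56.9% GC, *Sox6*, at -1.27 with 46.1%, and *Sox9*, at -0.24 with 49.3%. A correction for GC content, chosen after the data had been seen, brought the SE of *Sox3* for *Kmt2a*+/LSL against *Kmt2a*+/+ from 0.64 to 0.20 (log2 fold change -0.40, edgeR adjusted p = 0.987) and raised that of *Sox1* from 0.16 to 0.43 (-0.81, adjusted p = 0.987). The cause of the gradient was not tested.

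**Figure D5:**
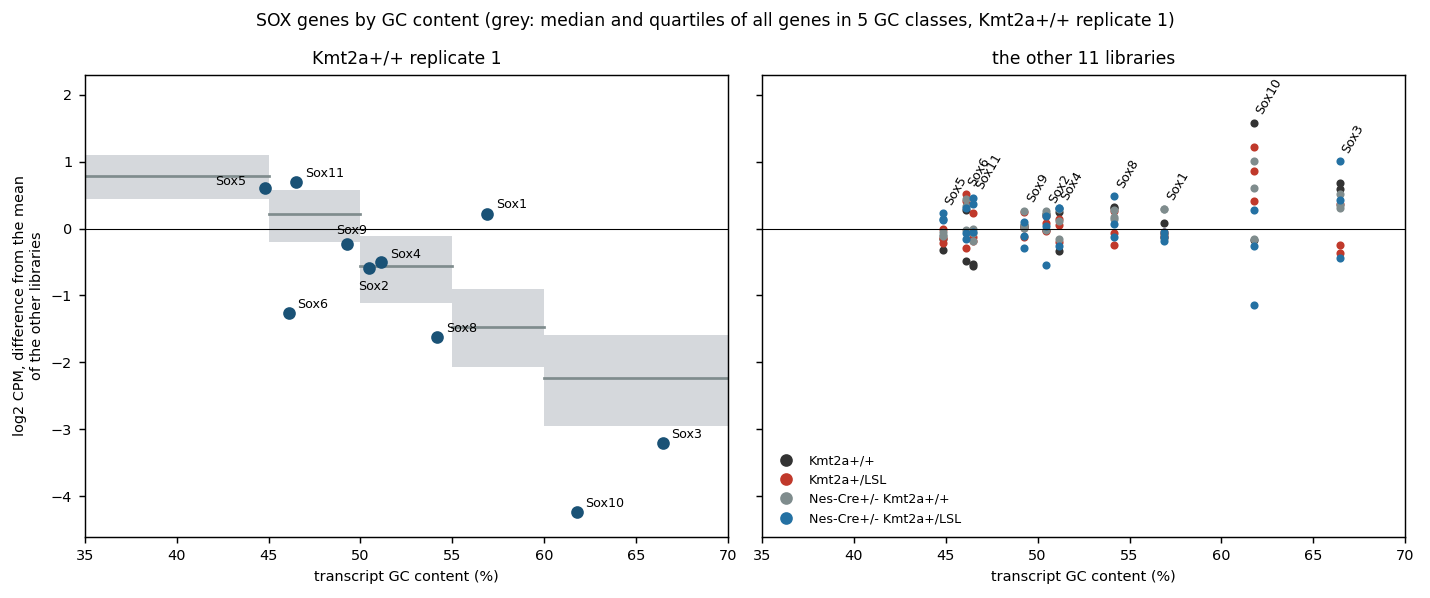
Difference of each SOX gene's log2 CPM (vertical axis) in one library from the mean of the other 11, against the GC content of its transcripts in percent. Left, *Kmt2a*+/+ replicate 1, with the median (grey line) and quartiles (grey box) of all genes in 5 GC classes. Right, the other 11 libraries by genotype. *Sox3* and *Sox10*, the genes with most GC, are lowest on the left, while *Sox1* stays at 0.22.

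The 8 pairs of paralogs within a group ranged from positive to negative correlation over libraries. Over the 12 libraries, Pearson's r of log2 CPM was 0.78 (Spearman's rho 0.59) for *Sox2* and *Sox3*, 0.81 (0.16) for *Sox8* and *Sox10*, and 0.66 (0.57) for *Sox9* and *Sox10*. It was 0.42 (0.27) for *Sox8* and *Sox9*, 0.14 (0.38) for *Sox1* and *Sox2*, -0.26 (0.10) for *Sox1* and *Sox3*, -0.36 (-0.19) for *Sox4* and *Sox11* and -0.54 (-0.10) for *Sox5* and *Sox6*. All 8 values are descriptions over libraries that share depth and GC differences. Without the 2 libraries farthest from the median of the first gene, r was 0.31 for *Sox2* and *Sox3* and 0.13 for *Sox8* and *Sox10*. The same step gave -0.28 for *Sox1* and *Sox2*, -0.65 for *Sox1* and *Sox3*, -0.39 for *Sox4* and *Sox11*, 0.32 for *Sox5* and *Sox6* and 0.02 for *Sox8* and *Sox9*. For *Sox9* and *Sox10* it gave 0.365. Without *Kmt2a*+/+ replicate 1 alone, r was 0.63 for *Sox9* and *Sox10*, 0.59 for *Sox2* and *Sox3*, 0.58 for *Sox1* and *Sox2*, 0.29 for *Sox1* and *Sox3* and 0.155 for *Sox5* and *Sox6*. It was 0.042 for *Sox8* and *Sox9*, -0.013 for *Sox8* and *Sox10* and -0.045 for *Sox4* and *Sox11*, so the relation of *Sox8* and *Sox10* rested on that library, and *Sox1* with *Sox3* and *Sox5* with *Sox6* changed sign without it.

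Outside the family, the genes whose pattern over 12 libraries was most like a SOX gene (the highest 2 Pearson's r among genes with a mean of at least 50 normalized counts) were *Mxd4*, a MYC antagonist, and *Rap1gap*, a GTPase-activating protein, for both *Sox3* (r = 0.99 and 0.99) and *Sox8* (0.99 and 0.99). For *Sox1* they were *Meis2* (0.88), a homeobox factor of forebrain progenitors, and *Efnb2* (0.85), an ephrin ligand. *Sox2* was nearest to *Anxa7* (0.97) and *Zfp94* (0.96), *Sox4* to *Snhg11* (0.94) and *Tox4* (0.91), and *Sox11* to *Eif1ax* (0.97) and *Ssr1* (0.96). *Sox5* was nearest to *Ap1s3* (0.95) and *Kctd4* (0.95), *Sox6* to *Thap1* (0.91) and *Tmem18* (0.89), *Sox9* to *Irak2* (0.90) and *Plscr1* (0.89), and *Sox10* to *Crkl* (0.96) and *Hlcs* (0.96). Without *Kmt2a*+/+ replicate 1 the r of *Sox6* fell to 0.76 with both of its genes, that of *Sox10* to 0.88 with *Crkl* and 0.84 with *Hlcs*, and that of *Sox5* with *Ap1s3* to 0.88. The other 15 values were then 0.82 to 0.98, with those of *Sox3* and *Sox8* at 0.94 to 0.96.

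Genes that work with the SOX factors were read from 6 lists, and none of their members passed an adjusted p of 0.05 (edgeR) in either direction in any of the 5 comparisons. Of 10 other SOX genes, 8 were tested. The 3 with the most normalized counts were *Sox21*, a SOXB2 factor that opposes SOXB1, with 1398 to 3542 normalized counts, *Sox12*, the remaining SOXC gene, with 591 to 2855, and *Sox13*, the remaining SOXD gene, with 192 to 564. All 3 were lowest in *Kmt2a*+/+ replicate 1, and their transcripts hold 58.3% to 60.8% GC. The median log2 fold change of the 8 was 0.12 for *Kmt2a*+/LSL against *Kmt2a*+/+ and -0.10 for Nes-Cre+/- *Kmt2a*+/LSL against *Kmt2a*+/LSL. Without *Kmt2a*+/+ replicate 1 the first of these was -0.28, with 7 of 8 genes negative, beside a median of 0 over all genes.

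All 14 progenitor genes that SOXB1 factors act on or with were tested. Among them are *Vim* and *Nes*, intermediate filaments of progenitors, and *Notch1*, the receptor that holds them undifferentiated. *Vim* had 41203 to 68607 normalized counts, *Nes* 7578 to 18156, and *Notch1* 8593 in *Kmt2a*+/+ replicate 1 and 18380 to 29309 in the others. The median log2 fold change of the list was -0.10 for *Kmt2a*+/LSL against *Kmt2a*+/+ and 0.03 for Nes-Cre+/- *Kmt2a*+/LSL against *Kmt2a*+/LSL, beside 0.0011 and 0.0017 over all genes. The first was -0.17 without *Kmt2a*+/+ replicate 1, where the median over all genes was 0.

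The 12 glial partners and targets of SOX9 were all tested, with medians of -0.15 (-0.26 without *Kmt2a*+/+ replicate 1) and -0.14 in the same comparisons. *Fabp7*, a fatty acid binding protein of radial glia, had 214648 normalized counts in *Kmt2a*+/+ replicate 1 and 58218 to 118142 elsewhere. *Slc1a3*, a glutamate transporter, had 40849 to 72190. Of the 12 neuronal targets of SOXC, *Map2*, a dendritic protein, had 23473 to 44906 normalized counts, *Tead2* 611 to 3239 and *Prox1*, a factor of dentate granule neurons, 1081 to 1832. The medians of the list were -0.04 and 0.21, and the first turned to 0.081 without *Kmt2a*+/+ replicate 1.

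The oligodendrocyte list that belongs to SOX10 and SOX8 had 15 of 16 genes tested. *Olig1*, an early lineage factor, had 16889 normalized counts in *Kmt2a*+/+ replicate 1 and 61449 to 99275 elsewhere, *Olig2* 9463 and 16594 to 26746, and *Cnp* 1870 and 5554 to 8777. The myelin gene *Mbp*, singled out after its values were seen, had 25.6 to 57.8. The medians of these 15 genes were 0.16 and -0.37. In the second comparison 9 of 15 were negative, where 50.4% of all genes were positive. The first median was -0.0068 without *Kmt2a*+/+ replicate 1. The 8 genes tied to SOXD factors had medians of -0.26 (-0.22 without that replicate) and 0.03. Of them, *Ctbp1* and *Ctbp2*, corepressors, had 1743 to 3940 and 1662 to 2163 normalized counts. *Tbr1*, a factor of early-born projection neurons, was the one list gene whose 3 *Kmt2a*+/LSL libraries (61.05, 67.1 and 65.0) lay above all 9 others (12.8 to 60.95), by a margin under 1 normalized count, where 0.363% of all genes tested did not overlap in either direction (log2 fold change 0.48, SE 0.36, edgeR adjusted p = 0.9999, and 0.35, SE 0.23, adjusted p = 1 without *Kmt2a*+/+ replicate 1).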

How the data were processed

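RNA-Seq estimated counts per gene, deposited by the authors as whole numbers, came from 12 mNPC libraries. Per the labels and methods, reads were pseudoaligned with kallisto 0.48.0 to the GRCm38 transcriptome, summed per gene, and tested by the authors with DESeq2 1.42.0. The authors then corrected the z-scores with fdrtool and used 3 of the genotypes further. That correction was not run here, so the numbers of genes called are not comparable with theirs. The 10 SOX genes and all gene lists were chosen with earlier results of these data known. Groups came from the sample titles, and the genotype of each group, with its LSL allele and Cre, from the study's text. The 17076 of 18911 genes that had a sum over 10 and were above 0 in 2 libraries or more were fitted with edgeR 4.0.16 (R 4.3.3) by genotype, with TMM scaling and Benjamini-Hochberg adjustment. A normalized count is the count scaled to the mean effective library. Totals were 18280008 to 28596919, and counting intervals cover counting error only. Transcript lengths, GC content and HMG boxes came from GENCODE on GRCm38. Named were all SOX genes, *Kmt2a*, list genes past the threshold, the 3 list genes with most counts, those whose *Kmt2a*+/LSL libraries lay outside the other 9, and the 2 genes most like each SOX gene, except that some list genes are not reported here. Alternatives were DESeq2 1.42.0, limma-voom (limma 3.58.1), scaling, filters, a replicate block and omitted libraries. A GC offset and omission of both doubted libraries were added after seeing the data.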

Additional observations from a re-analysis of the deposited data

How the results depend on the processing

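No SOX gene passed an adjusted p of 0.05 under any alternative run. All 50 SOX log2 fold changes kept their sign with DESeq2 size factors, DESeq2's Wald test and robust edgeR, as did all 20 fitted in 9 libraries and all 45 under the stricter filter, which drops *Sox10*. limma-voom with quality weights turned 14 of 50, and so did leaving out both doubted libraries. The GC offset turned 6, the replicate block 4 and no filter 1. Of 360 values with libraries left out singly 40 turned, 11 of them without *Kmt2a*+/+ replicate 1. The cause was not tested.

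For *Kmt2a*+/LSL against *Kmt2a*+/+, limma-voom gave -0.034 (*Sox2*), -0.038 (*Sox4*), 0.45 (*Sox11*), 0.064 (*Sox5*), -0.26 (*Sox8*) and -0.016 (*Sox10*). Without both doubted libraries the values were -0.013 (*Sox2*), 0.48 (*Sox11*), 0.11 (*Sox5*), -0.29 (*Sox8*) and -0.059 (*Sox10*). *Sox11* was at 0.0021 without a filter and 0.058 with the GC offset. For Nes-Cre+/- *Kmt2a*+/LSL against *Kmt2a*+/LSL, *Sox1* was at 0.065 with the GC offset and *Sox2* at 0.0089 without both libraries. Against Nes-Cre+/- *Kmt2a*+/+, *Sox8* was at 0.033 with limma-voom, 0.034 with the GC offset and 0.067 without both libraries. For Nes-Cre+/- *Kmt2a*+/+ against *Kmt2a*+/+, limma-voom gave -0.13 (*Sox3*), 0.38 (*Sox11*), 0.084 (*Sox5*), -0.055 (*Sox8*) and -0.52 (*Sox10*), the GC offset -0.62 (*Sox1*), -0.15 (*Sox3*) and 0.0087 (*Sox11*), and omission of both libraries -0.22 (*Sox3*), 0.41 (*Sox11*), 0.13 (*Sox5*), -0.11 (*Sox8*) and -0.34 (*Sox10*). For *Kmt2a*+/LSL against the rest, limma-voom gave -0.027 (*Sox2*) and 0.11 (*Sox11*), and omission of both -0.028 and 0.12.

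Same-numbered libraries correlated in their deviations at a mean r of 0.137 over 18 pairs, 8 of them over 0.1, against -0.065 over 36 differently numbered pairs, 9 of them over 0.1. No source used here ties the numbers to a litter or day and not every same-numbered pair was over 0.1, so the numbers were not taken as pairs. The replicate block turned *Sox3* to 0.20 and *Sox11* to 0.058 for *Kmt2a*+/LSL against *Kmt2a*+/+, *Sox3* to -0.11 for Nes-Cre+/- *Kmt2a*+/LSL against Nes-Cre+/- *Kmt2a*+/+, and *Sox11* to 0.011 for Nes-Cre+/- *Kmt2a*+/+ against *Kmt2a*+/+. It lowered the genes called for *Kmt2a*+/LSL against the rest from 1 (*Grb10*) to 0.

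Leaving out single libraries moved the values that turned as follows. The ranges for *Kmt2a*+/LSL against *Kmt2a*+/+ were -0.014 to 0.34 (*Sox2*), -0.62 to 0.29 (*Sox3*), -0.19 to 0.48 (*Sox11*), -0.35 to 0.11 (*Sox5*), -0.29 to 0.35 (*Sox8*), -0.032 to 0.16 (*Sox9*) and -0.060 to 1.84 (*Sox10*). For Nes-Cre+/- *Kmt2a*+/LSL against *Kmt2a*+/LSL the ranges were -0.055 to 0.0097 (*Sox1*), -0.28 to 0.028 (*Sox2*) and -0.025 to 0.29 (*Sox8*). For Nes-Cre+/- *Kmt2a*+/LSL against Nes-Cre+/- *Kmt2a*+/+ the ranges were -0.31 to 0.32 (*Sox3*), -0.062 to 0.19 (*Sox4*) and -0.21 to 0.080 (*Sox8*). For Nes-Cre+/- *Kmt2a*+/+ against *Kmt2a*+/+ the ranges were -0.22 to 0.70 (*Sox3*), -0.26 to 0.41 (*Sox11*), -0.33 to 0.13 (*Sox5*), -0.11 to 0.53 (*Sox8*) and -0.34 to 1.56 (*Sox10*). Against the rest, *Kmt2a*+/LSL had the ranges -0.093 to 0.071 (*Sox4*), -0.20 to 0.10 (*Sox11*), -0.21 to 0.023 (*Sox8*) and -0.060 to 0.13 (*Sox9*). Genes called ranged from 0 to 2 for *Kmt2a*+/LSL against *Kmt2a*+/+ and from 0 to 2 against the rest.

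DESeq2's Wald test called 7, 7, 3, 3 and 4 genes in the 5 comparisons, and 10 for the difference of the LSL effect with and without Cre, where edgeR called 0 (295 at an unadjusted p under 0.05). limma-voom called 2, 2 and 4 for *Kmt2a*+/LSL against *Kmt2a*+/+, Nes-Cre+/- *Kmt2a*+/LSL against *Kmt2a*+/LSL, and *Kmt2a*+/LSL against the rest, the GC offset 1, 1 and 2, and omission of both libraries 2, 1 and 2, with 1 for Nes-Cre+/- *Kmt2a*+/+ against *Kmt2a*+/+. Without TMM, *Sox5* in Nes-Cre+/- *Kmt2a*+/+ was at 3450. With the median transcript length the ranks were 1 (*Sox8*), 2 (*Sox4*), 3 (*Sox2*), 5 (*Sox5*), 6 (*Sox9*), 7 (*Sox6*), 8 (*Sox11*) and 9 (*Sox1*). Among the SOX genes depth limits *Sox10*, with 3 reads in *Kmt2a*+/+ replicate 1.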

Other observations

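In the oligodendrocyte list, *Erbb3*, a neuregulin receptor singled out after its values were seen, had 17.96, 23.4 and 16.5 normalized counts in *Kmt2a*+/LSL and 2.85, 6.67 and 8.22 in *Kmt2a*+/+. It had 8.76, 13.3 and 10.5 in Nes-Cre+/- *Kmt2a*+/+, also all above *Kmt2a*+/+. The Nes-Cre+/- *Kmt2a*+/LSL libraries had 11.9, 11.7 and 20.8 and overlapped *Kmt2a*+/LSL. The log2 difference of *Kmt2a*+/LSL from *Kmt2a*+/+ was 1.64 (SE 0.48, edgeR unadjusted p = 0.0058, adjusted p = 1), or 1.355 (SE 0.48, edgeR unadjusted p = 0.016, adjusted p = 0.551) without *Kmt2a*+/+ replicate 1. The count of 2.85 in that library lies under the 4.28 that 3 reads are worth there. *Mog* had 0 to 6.82 normalized counts, with an unadjusted p under 0.05 and an adjusted p of 1 in edgeR for Nes-Cre+/- *Kmt2a*+/LSL against Nes-Cre+/- *Kmt2a*+/+.

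*Acan*, the gene of the matrix proteoglycan aggrecan and a member of the list tied to SOXD factors, was singled out after its values were seen. It had 3.59, 2.92 and 6.19 normalized counts in the *Kmt2a*+/LSL libraries, 18.5, 12.4 and 15.6 in the *Kmt2a*+/+ libraries, 10.7, 5.12 and 5.71 in the Nes-Cre+/- *Kmt2a*+/+ libraries, and 11.9, 19.7 and 19.7 in the Nes-Cre+/- *Kmt2a*+/LSL libraries. The genotypes did not overlap in 4 comparisons, and *Kmt2a*+/LSL overlapped the 9 other libraries. The log2 difference from *Kmt2a*+/+ was -1.84 (SE 0.51, edgeR unadjusted p = 0.0040) in *Kmt2a*+/LSL, and Nes-Cre+/- *Kmt2a*+/LSL was 1.99 (SE 0.51, edgeR unadjusted p = 0.0024) above *Kmt2a*+/LSL. It was 1.24 (SE 0.49, edgeR unadjusted p = 0.027) above Nes-Cre+/- *Kmt2a*+/+, which in turn was at -1.09 (SE 0.49, edgeR unadjusted p = 0.047) against *Kmt2a*+/+. The differences from *Kmt2a*+/+ without its replicate 1 were -1.71 (SE 0.56, edgeR unadjusted p = 0.011, adjusted p = 0.551) for *Kmt2a*+/LSL and -0.95 (SE 0.54, edgeR unadjusted p = 0.104, adjusted p = 0.733) for Nes-Cre+/- *Kmt2a*+/+. No adjusted p passed the threshold (edgeR, adjusted p = 1 in these 4 comparisons with all libraries), and these levels rest on few reads in each library.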
